A study of Drosophila melanogaster with 9 samples.

Results

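The insulin, TOR and nutrient sensing genes are 33 *Drosophila* genes that were chosen by name for their known roles, with earlier results of these data known. They are 33 of the 14077 genes counted in ribosome-bound RNA from egg chamber follicle cells. Of these, 3 encode ligands or a ligand-binding protein, 4 the insulin receptor and its adaptors, and 6 the branch that leads through PI3K and Akt. Another 9 encode the TSC complex, Rheb, the TOR complexes and their substrates, 5 belong to AMPK and Sestrin, and 6 are nutrient-responsive transcription factors or the kinase Gcn2.

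In flies, insulin-like peptides bind the receptor InR, which acts through the adaptor chico, PI3K and the kinase Akt. Akt holds the transcription factor foxo in the cytoplasm and restrains the TSC complex, so that the GTPase Rheb can switch on the TOR kinase, whose complex with raptor phosphorylates S6k and the translational inhibitor Thor (4E-BP). AMPK, Sestrin and Gcn2 report low energy or low amino acids to the same machinery, and in the ovary insulin signalling is known to set how fast egg chambers grow and take up yolk when dietary protein is available.

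TRAP-seq libraries were made by pulling down ribosomes that carry a GFP-tagged RpL10Ab protein, so a level depends on both the amount of an mRNA and how much of it is bound to tagged ribosomes. Fed SFC libraries came from *PG150-GAL4>UAS-RpL10Ab-GFP* flies, in which the driver is active in stretch follicle cells (SFCs) and also in centripetal cells. Starved AFC and fed AFC libraries came from *GR1-GAL4>UAS-RpL10Ab-GFP* flies, whose driver is active in follicle cells of every type from early oogenesis on (AFCs, called main body follicle cells in the sample descriptions), SFCs included. The paper also reports weak activity of *GR1-GAL4* in gut and of *PG150-GAL4* in Malpighian tubules. Fed flies of both genotypes spent 3 days at 25°C on cornmeal food and then 2 days with yeast paste, whereas protein-starved flies spent 16 to 20 h on apple juice agar that held no yeast. Each of the 3 groups had 3 libraries, each from the pooled thoraxes and abdomens of about 100 flies, and all groups carried the same tagged ribosomal protein. There was no starved SFC group.

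The 9 libraries held 30551253 to 45910215 reads, and 10870 genes passed the filter on low counts. Fed AFC replicate 1 stood apart with 13250 genes at 10 or more reads, against 9273 to 10869 in the other libraries. Fed SFC replicate 2 had 36.3% of its reads on rRNA pseudogenes, and the other libraries had 1.19% to 21.5%. The 11 SFC markers used by the study summed to 853 to 1223 CPM (read counts scaled to library size by TMM) in fed SFCs and 813 to 930.1 CPM in fed AFCs. By edgeR and by DESeq2 0 of the 11 passed in fed SFCs against fed AFCs. At an unadjusted p below 0.05 there was 1, and 9 had a log2 fold change above 0. *Vha16-1* alone gave 511 to 653 CPM of the sum in fed SFCs and 392 to 621 CPM in fed AFCs. The SFC identity of these libraries was taken from the driver line and not from these markers. The paper also imaged the tagged protein in SFCs and reports lower levels of eggshell genes in its SFC data. The 8 muscle markers summed to 432 to 962 CPM in fed SFCs, 157 to 287 CPM in starved AFCs and 141 to 265 CPM in fed AFCs, and 5 of the 8 were higher in fed SFCs than in fed AFCs. The 8 fat body markers summed to 1163 to 2396 CPM in fed SFCs, 362 to 969 CPM in starved AFCs and 413 to 1342 CPM in fed AFCs. Of these 8, 0 passed against fed AFCs by edgeR, 4 had an unadjusted p below 0.05 and DESeq2 called 1. Of the 6 midgut markers, the 3 *Jon* protease genes were lower than in fed AFCs in both fed SFCs and starved AFCs. Of the other marker lists in fed SFCs against fed AFCs, 1 of 6 germline markers (*bcd*) passed by edgeR and was higher. Of these 6, 3 had an unadjusted p below 0.05 and all had a log2 fold change above 0. They summed to 1057 to 1863 CPM in fed SFCs and 664 to 1211 CPM in fed AFCs. Of 3 mid and late follicle cell markers, 1 (*Sox14*) was lower. By edgeR, by DESeq2 or at an unadjusted p below 0.05, 0 of 3 Malpighian tubule and 0 of 4 neuronal markers passed. The 3 tubule markers all had a log2 fold change above 0, and the groups did not overlap for 2 of them. These 3 summed to 406 to 570 CPM in fed SFCs, 206 to 643 CPM in starved AFCs and 177 to 401 CPM in fed AFCs. The part of these other tissues in the results was not tested.

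All 33 genes passed the filter. At least 10 reads were counted in every library for 32 of them, the exception being *Ilp6*, with 0 reads in fed SFC replicate 2. To compare levels between genes, TPM (a measure that corrects for transcript length) was used within each library. *Thor* had the highest TPM of the 33 in all 9 libraries, with 342 to 792 TPM. *crc*, which encodes the fly ATF4 of the amino acid response, ranked 2 or 3 with 127 to 289 TPM, as did *REPTOR-BP*, the partner of the TOR-repressed transcription factor REPTOR, with 107 to 304 TPM. Next came *alc*, the beta subunit of AMPK, with a median of 102 TPM, *Rheb* with 73.9 TPM, the Mlx-like sugar sensor subunit *bigmax* with 55.1 TPM and the relaxin-like peptide gene *Ilp8* with 49.1 TPM. Below *Thor*, the ranges of neighbours in this order overlapped, and *bigmax*, *Ilp8* and the AMPK gamma subunit gene *SNF4Agamma* exchanged places between libraries.

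The lowest levels were found at the receptor. *InR* had 0.145 to 0.750 TPM and was last or next to last in every library, and its median level per length was 1414-fold below that of *Thor*. *raptor*, the TOR complex 1 scaffold, had a median of 1.36 TPM, *REPTOR* 1.47 TPM and the receptor adaptor *chico* 1.73 TPM. In CPM, which is not corrected for length, *InR* was low as well. Its means were 9.04 in fed SFCs, 7.55 in starved AFCs and 6.60 in fed AFCs, against 326, 508 and 463 for *Thor*. *InR* is a long gene, with 11367 exon bases over its 4 transcripts, and drew 129 to 569 reads in each AFC library. The core kinases lay between these ends, with medians of 2.11 TPM for the catalytic PI3K subunit *Pi3K92E*, 3.28 TPM for *Tor* (annotated as mTor), 4.60 TPM for *Akt*, 6.10 TPM for *S6k* and 17.2 TPM for *Pdk1*.

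**Figure D1:**
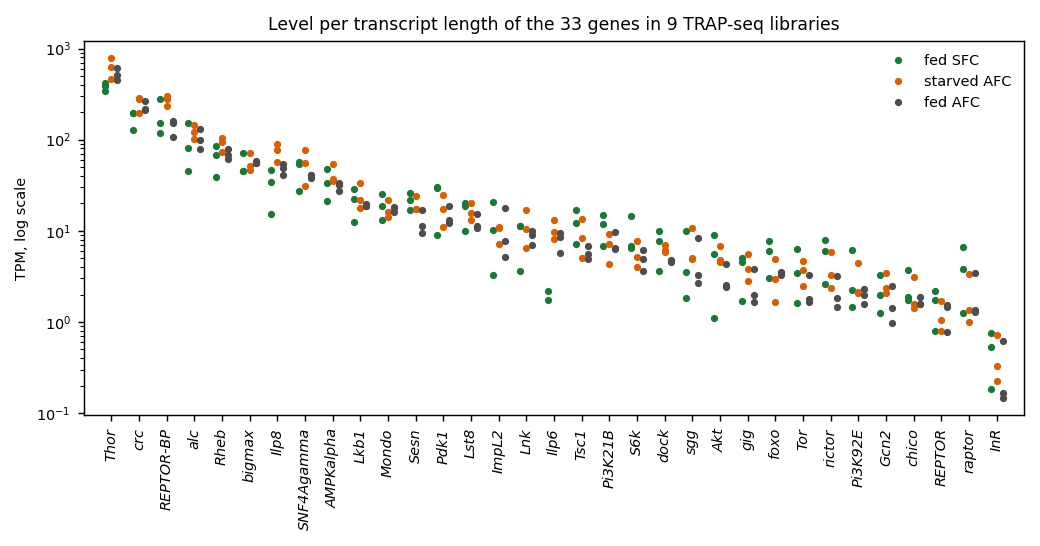
TPM (log scale) of each of the 33 genes, ordered by median level, with 1 point per library for fed SFCs, starved AFCs and fed AFCs; the *Ilp6* value of 0 in fed SFC replicate 2 is not drawn. *Thor* lies at the top in all 9 libraries and *InR* at the bottom, with a median of 0.328 TPM.

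Fed SFCs were compared with fed AFCs to ask how the follicle cells that clear nurse cells in development differ from follicle cells at large. Of the 33 genes, *rictor* alone passed edgeR's test, and it was higher in fed SFCs. The log2 fold change (LFC) was below 0.5 in size for 24 of the 33 genes, and it was over 1 for 2 of them, *rictor* and *Ilp6*. With 1 of 33 past an adjusted p of 0.05, against 2.99% of all genes tested (1.21% higher and 1.78% lower), the genes passed about as often as any others. DESeq2 called 4 of the 33 (*rictor* and *Tsc1* higher, *Ilp6* and *crc* lower), against 9.76% of all genes. The median LFC of the 33 by edgeR was 0.19, beside -0.10 for all genes. These medians were 0.15 and 0.05 when fed AFC replicate 1 was left out. Without fed SFC replicate 3 the median of the 33 was -0.01, with 16 of 33 above 0 in place of 19, and it was also -0.01 with a trend in exon length removed from each library. At an unadjusted p below 0.05 there were 7 of 33 (21.2%), against 19.7% of all genes. The groups did not overlap for 8 genes, against 20.9% of all genes (9.12% higher and 11.8% lower). These were *rictor*, *Tsc1*, *Sesn*, *foxo* and *Lst8*, higher in fed SFCs, and *Ilp6*, *Ilp8* and *crc*, lower in fed SFCs. Whether fewer cells expressed a gene or each cell held less of its ribosome-bound mRNA cannot be told apart in these pooled samples.

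*rictor* (FBgn0031006, X from 19252111 to 19261240 of BDGP6.54, minus strand) encodes the defining subunit of TOR complex 2, which phosphorylates Akt. It was read at 50.3, 45.8 and 72.8 CPM in fed SFCs, 35.9, 49.0 and 34.4 CPM in starved AFCs and 32.6, 23.4 and 21.2 CPM in fed AFCs. Every fed SFC library lay above every fed AFC library, and the starved AFC libraries lay between the fed groups with 1 value inside the SFC range. The LFC of fed SFCs over fed AFCs was 1.13 ± 0.27 (SE, 95% interval 0.55 to 1.71), or 2.19-fold, with an adjusted p of 0.042 by edgeR's quasi-likelihood test. This call was close to the threshold. It was lost with DESeq2 size factors (adjusted p = 0.054) and in a fit of only these 2 groups (adjusted p = 0.084), and it was also lost when fed SFC replicate 1 or 3, starved AFC replicate 1 or 3, or fed AFC replicate 2 or 3 was left out, with adjusted p-values of 0.051 to 0.23 and LFCs of 0.91 to 1.22.

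The TSC complex restrains Rheb and thereby TOR. Its subunit gene *Tsc1* was read at 58.6, 73.0 and 88.8 CPM in fed SFCs, 53.4, 65.4 and 43.7 CPM in starved AFCs and 40.6, 40.3 and 42.0 CPM in fed AFCs. The fed AFC libraries were nearly equal and all lay below the other 6. The LFC of fed SFCs over fed AFCs was 0.84 ± 0.23 (SE), which did not pass the edgeR test (adjusted p = 0.069) but passed with DESeq2 (adjusted p = 0.016) and when fed SFC replicate 1 was left out of the edgeR fit (adjusted p = 0.042). The other TSC subunit, *gig* (TSC2), had an LFC of 0.36, and the substrate *S6k*, which drives ribosome production and growth, had an LFC of 0.67 (adjusted p = 0.25 by edgeR). *Thor* had 218, 481 and 278 CPM in fed SFCs, 365, 479.8 and 679.6 CPM in starved AFCs and 383, 383 and 622 CPM in fed AFCs. Its groups overlapped widely, with an LFC of -0.51 ± 0.35 (SE) for fed SFCs over fed AFCs.

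**Figure D2:**
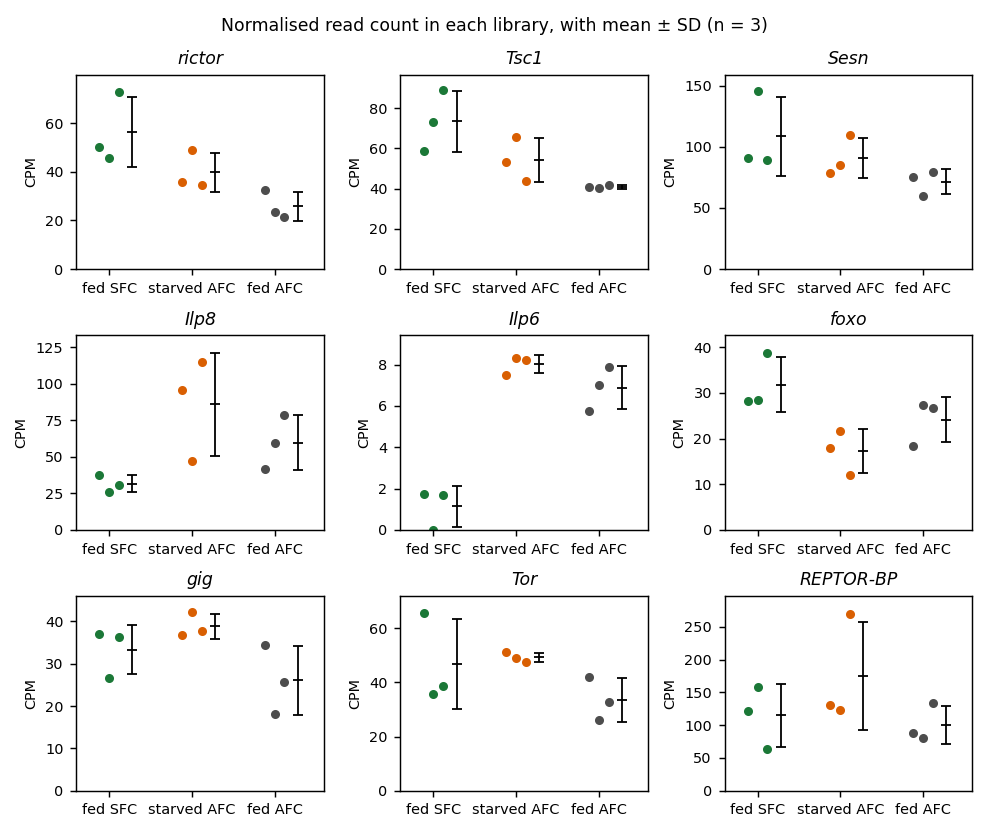
Normalised read count (CPM) of 9 genes in each library, with fed SFCs on the left, starved AFCs in the middle and fed AFCs on the right, and the mean ± SD (n = 3) beside each group; each panel has its own axis, which starts at 0. The fed SFC points of *rictor* and *Tsc1* lie above all fed AFC points, and those of *Ilp8* and *Ilp6* lie below.

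Among the ligands, both peptide genes were read less in fed SFCs. *Ilp6* (FBgn0044047, X from 2331493 to 2334658) encodes the insulin-like peptide best known from fat body at times without feeding. It had 1.72, 0 and 1.68 CPM in fed SFCs, 7.50, 8.30 and 8.24 CPM in starved AFCs and 5.77, 7.03 and 7.87 CPM in fed AFCs. All 3 fed SFC libraries were below all 6 AFC libraries, and the AFC libraries differed little among themselves. The counts behind these values were 100, 0 and 80 reads in fed SFCs and 246 to 347 reads in the AFC libraries, and a count of 0 in fed SFC replicate 2 allows up to 0.135 CPM (3 reads, counting error only). The LFC was -2.57 ± 0.94 (SE) against fed AFCs, with an adjusted p of 0.16 by edgeR, and its size rests in part on the 0. Without fed SFC replicate 2 it was -1.95, with an adjusted p of 0.047, and DESeq2 called it with all libraries (adjusted p = 0.031).

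*Ilp8* (FBgn0036690, 3L from 17029812 to 17032080), a peptide that signals tissue growth state through the receptor Lgr3 and is made by follicle cells at ovulation, had 37.8, 26.1 and 30.6 CPM in fed SFCs, 95.9, 47.0 and 114.7 CPM in starved AFCs and 41.5, 59.5 and 78.5 CPM in fed AFCs. The fed SFC libraries were the lowest 3 of the 9, and the AFC groups overlapped. The LFC of fed SFCs over fed AFCs was -0.92 ± 0.33 (SE, adjusted p = 0.16 by edgeR). *ImpL2*, a secreted protein that binds insulin-like peptides, varied from 10.3 to 71.5 CPM within the fed SFC group alone, and its LFC was 0.16 with a 95% interval from -1.07 to 1.39. Fat body is a known source of *Ilp6*, and the part of fat body RNA in these values was not tested.

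The receptor, its adaptors and the PI3K branch held 0 genes past the test in fed SFCs against fed AFCs, by edgeR, by DESeq2 or at an unadjusted p below 0.05. *InR* had 8.16, 6.23 and 12.7 CPM in fed SFCs, 6.31, 10.4 and 5.91 CPM in starved AFCs and 11.6, 4.10 and 4.13 CPM in fed AFCs, so that all groups overlapped. Of the 10 genes in these 2 groups of roles, 8 had an LFC above 0, from 0.27 for the PI3K regulatory subunit *Pi3K21B* to 0.45 for *InR*. Those below 0 were the adaptor *Lnk* (-0.25) and the kinase *sgg* (GSK3, -0.19). *foxo* had 28.3, 28.3 and 38.8 CPM in fed SFCs, 18.0, 21.6 and 12.1 CPM in starved AFCs and 18.4, 27.2 and 26.7 CPM in fed AFCs. The fed SFC libraries were the highest, by a narrow margin over fed AFCs, and the LFC against fed AFCs was 0.40 ± 0.28 (SE, adjusted p = 0.45 by edgeR).

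Of the 5 AMPK and Sestrin genes, 0 passed by edgeR or DESeq2 and 1, *Sesn*, had an unadjusted p below 0.05. The catalytic subunit *AMPKalpha*, the beta subunit *alc*, the gamma subunit *SNF4Agamma* and the upstream kinase *Lkb1* had LFCs of -0.11, -0.36, -0.03 and -0.11 in fed SFCs over fed AFCs. *Sesn*, which encodes the TOR-inhibiting Sestrin, was read at 90.7, 146 and 89.1 CPM in fed SFCs, 78.3, 84.9 and 109 CPM in starved AFCs and 75.0, 59.8 and 79.7 CPM in fed AFCs. Its fed SFC libraries were above all fed AFC libraries, with an LFC of 0.60 ± 0.25 (SE, adjusted p = 0.21 by edgeR). *crc* had 482, 682 and 537 CPM in fed SFCs, 920.4, 684 and 889 CPM in starved AFCs and 787, 833 and 977 CPM in fed AFCs. All fed SFC libraries lay below both AFC groups, though fed SFC replicate 2 and starved AFC replicate 2 were almost level. The LFC of *crc* was -0.61 ± 0.25 (SE), not called by edgeR (adjusted p = 0.21) and called by DESeq2 (adjusted p = 0.034). Of its exon bases, 73.5% overlap *CG46314* on the same strand, so the division of reads between the 2 genes is uncertain. Per library, 30 to 325 reads were assigned to *CG46314* and 15118 to 38738 to *crc*.

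Starved AFCs were compared with fed AFCs to ask how follicle cell samples differ after protein starvation, when mid-stage egg chambers die. The paper attributes lower eggshell gene levels in starved AFCs in part to fewer late-stage egg chambers in those samples. A difference within cells and a difference in the stages present cannot be told apart here. None of the 33 genes passed the test. The LFCs ran from -0.56 to 0.80, and none was over 1 in size, whereas 16.4% of all genes were. The typical size differed less, with a median absolute LFC of 0.23 for the 33 genes and 0.29 for all genes. The 95% interval lay within a 2-fold change in either direction for 18 of the 33. The count of 0 by edgeR compares with 0.221% of all genes tested (24 genes, all lower in starved AFCs). At an unadjusted p below 0.05 there were 2 of the 33, *rictor* and *gig*, against 5.02% of all genes, and DESeq2 called 0, against 0.929% of all genes. The LFC was above 0 for 23 of the 33, with a median of 0.15 beside -0.09 for all genes. The median of the 33 stayed above 0 in each alternative fit, but its distance from the median of all genes was 0.25 with all libraries and 0.07 without fed AFC replicate 1.

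Without overlap between the groups were 7 genes, *Akt*, *Tsc1*, *gig*, *Tor*, *rictor*, *Lst8* and *Gcn2*. Over all genes, 12.1% had groups without overlap. All 7 were higher in starved AFCs, whereas all genes without overlap divided into 6.17% higher and 5.91% lower. Of these, 5 are TSC or TOR complex subunits, and the differences were small. *Tor* had 65.6, 35.7 and 38.5 CPM in fed SFCs, 50.99, 49.1 and 47.6 CPM in starved AFCs and 41.9, 25.9 and 32.7 CPM in fed AFCs. *gig* had 37.0, 26.6 and 36.3 CPM in fed SFCs, 36.7, 42.1 and 37.7 CPM in starved AFCs and 34.4, 18.2 and 25.6 CPM in fed AFCs. In both genes the starved AFC libraries were close together and above the fed AFC libraries, of which replicate 1 was the highest, and the fed SFC range reached into that of starved AFCs. The LFCs of starved AFCs over fed AFCs were 0.55 ± 0.27 for *Tor*, 0.58 ± 0.26 for *gig* and 0.63 ± 0.26 for *rictor* (SE, adjusted p = 0.98, 0.98 and 0.94 by edgeR). *Lst8*, a subunit of both TOR complexes, had an LFC of 0.18 and a 95% interval from -0.23 to 0.59, with the smallest SE of the 33.

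Of the 5 transcription factor genes and *Gcn2*, whose kinase senses uncharged tRNA, the AFC groups overlapped for all but *Gcn2*. *Thor*, a gene that foxo is known to induce in starved fly tissues, had an LFC of 0.14 with a 95% interval from -0.62 to 0.89. *InR*, also a foxo target, had an LFC of 0.19 with an interval from -0.91 to 1.30. *REPTOR-BP* was read at 122, 158 and 63.8 CPM in fed SFCs, 132, 124 and 269.7 CPM in starved AFCs and 87.6, 80.1 and 134 CPM in fed AFCs. One starved AFC library, replicate 3, was far above the rest, the groups overlapped, and the LFC of 0.80 ± 0.38 (SE) was the highest among the 33. *REPTOR* had 14.1, 13.2 and 18.8 CPM in fed SFCs, 10.8, 12.5 and 8.65 CPM in starved AFCs and 14.2, 21.2 and 11.3 CPM in fed AFCs, with overlapping AFC groups and an LFC of -0.54 ± 0.33 (SE). Among the transcription factors, the sugar sensor *Mondo* and its partner *bigmax* had LFCs of -0.20 and -0.17. All 5 AMPK and Sestrin genes had an LFC above 0, from 0.10 for *alc* to 0.34 for *Sesn*.

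*Pi3K21B* had the lowest LFC among the 33 in starved AFCs over fed AFCs, at -0.56 ± 0.28 (SE). It was read at 68.5, 77.3 and 90.8 CPM in fed SFCs, 49.3, 47.2 and 37.2 CPM in starved AFCs and 42.2, 94.6 and 59.8 CPM in fed AFCs. The fed AFC libraries spread over both other groups. *Ilp6* and *Ilp8* had LFCs of 0.22 ± 0.88 and 0.52 ± 0.33 (SE), and for *Ilp6* the AFC groups overlapped although the values in CPM were close. The SE of *Ilp6* draws on the spread over all 9 libraries, among them fed SFC replicate 2 with 0 reads, and not on the AFC libraries alone.

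**Figure D3:**
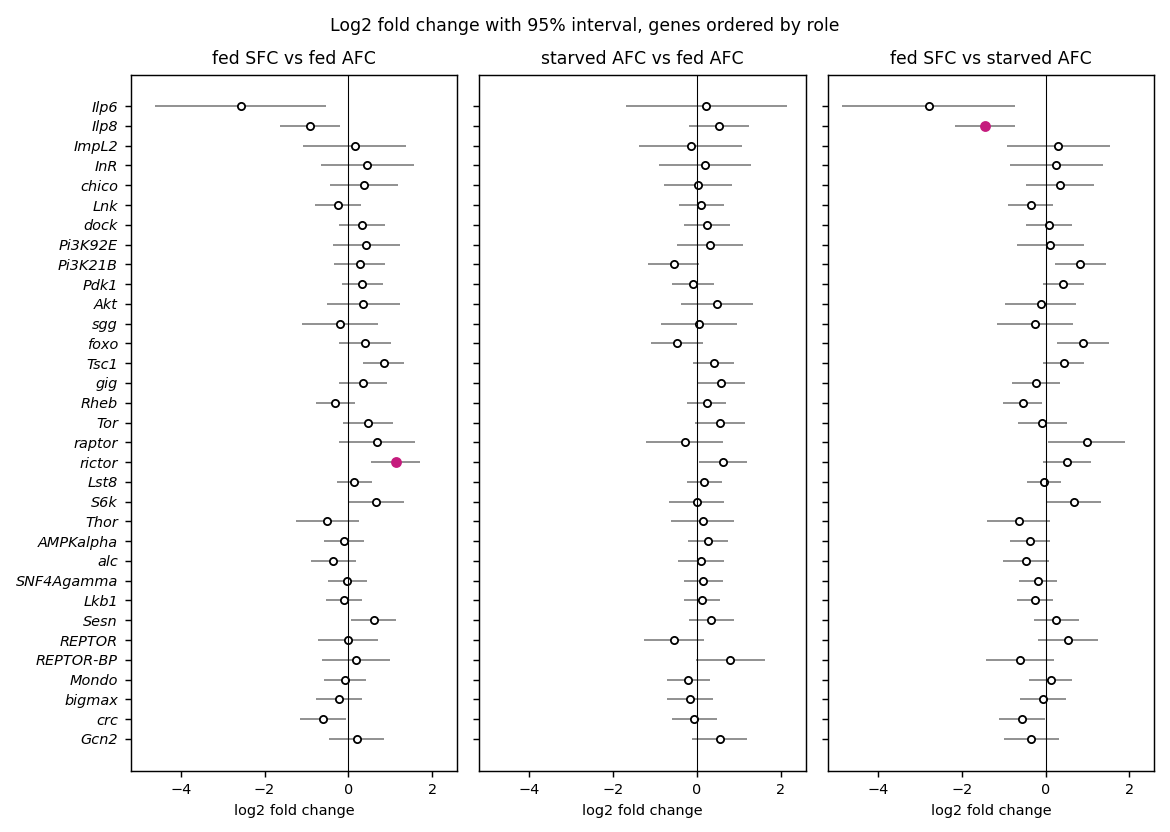
LFC with its 95% interval for the 33 genes, ordered by role from ligands (top) to transcription factors and Gcn2 (bottom), in fed SFCs over fed AFCs, starved AFCs over fed AFCs, and fed SFCs over starved AFCs; filled points have an adjusted p below 0.05. The filled points are *rictor* (1.13) in fed SFCs over fed AFCs and *Ilp8* (-1.45) in fed SFCs over starved AFCs, and none is filled in starved AFCs over fed AFCs.

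Fed SFCs were compared with starved AFCs directly because the comparisons above share the fed AFC libraries; cell type and feeding both differ here and cannot be told apart. *Ilp8* was lower in fed SFCs and was the only one of the 33 genes past the test, against 2.22% of all genes tested (1.24% higher and 0.975% lower). At an unadjusted p below 0.05 there were 8 of the 33, against 17.9% of all genes. The median LFC was -0.06, beside -0.02 for all genes. For *Ilp8*, every fed SFC library (26.1 to 37.8 CPM) was below every starved AFC library (47.0 to 114.7 CPM). The LFC was -1.45 ± 0.33 (SE, 95% interval -2.17 to -0.72), with an adjusted p of 0.046 by edgeR. The call was lost with length offsets (adjusted p = 0.052), in a fit of these 2 groups alone (adjusted p = 0.068), and without any one of fed SFC replicates 2 and 3, starved AFC replicates 1 and 3, and fed AFC replicates 2 and 3 (adjusted p = 0.055 to 0.21, LFC -1.43 to -1.17). DESeq2 called *Ilp8* and also *Ilp6* (LFC -2.77, adjusted p = 0.017), or 2 of the 33, against 8.2% of all genes.

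The groups did not overlap for 9 of the 33 genes, against 24.6% of all genes (11.2% higher and 13.5% lower). The genes higher in fed SFCs were *foxo* (LFC 0.89 ± 0.29), *Pi3K21B* (0.82 ± 0.28) and *REPTOR* (0.53 ± 0.33, SE), with adjusted p-values of 0.14, 0.15 and 0.43 by edgeR. The genes lower in fed SFCs were *Ilp6*, *Ilp8*, *Rheb*, *AMPKalpha*, *Lkb1* and *crc*. *Rheb*, the direct activator of TOR, had 104.3, 96.9 and 86.1 CPM in fed SFCs, 139, 121 and 159 CPM in starved AFCs and 95.6, 136 and 126 CPM in fed AFCs. Its fed SFC libraries were below the starved AFC libraries and overlapped those of fed AFCs, with an LFC of -0.54 ± 0.21 against starved AFCs (SE, adjusted p = 0.21 by edgeR). *raptor* had 34.5, 24.0 and 67.6 CPM in fed SFCs, 16.5, 31.7 and 15.8 CPM in starved AFCs and 38.6, 18.9 and 21.1 CPM in fed AFCs, with overlap between all groups and an LFC of 0.98 ± 0.42 (SE). Of the exon bases of *raptor*, 23.5% overlap *Mipp2* on the same strand, which took 698 to 4098 reads per library.

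The LFCs of the 33 genes went with exon length where SFCs were compared with AFCs. Across the genes, which are not independent replicates, Spearman's rho between LFC and exon length was 0.55 for fed SFCs over fed AFCs (0.20 over all genes tested), -0.08 for starved AFCs over fed AFCs and 0.53 for fed SFCs over starved AFCs (0.25 over all genes). Of the 16 longest genes, 12 had an LFC above 0 in fed SFCs over fed AFCs, with a median of 0.36. Of the 16 shortest, 6 did, with a median of -0.17. Among the genes with the smallest p, *rictor* has 6739 exon bases and *Ilp8* 867, whereas *Tsc1*, with an LFC of 0.84, has 3896 and lies among the 16 shortest. When a smoothed trend with exon length was removed from each library, rho fell to -0.01 and the LFC of *rictor* to 0.75 (adjusted p = 0.0701 by edgeR). The LFC of *Ilp8* in fed SFCs over starved AFCs was then -1.12 (adjusted p = 0.061). The fall in rho follows from the correction itself, which removes that trend. Both calls were close to the threshold and were also lost in several fits without this correction. The part of exon length in them was not tested, and the correction was chosen after the data were seen.

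**Figure D4:**
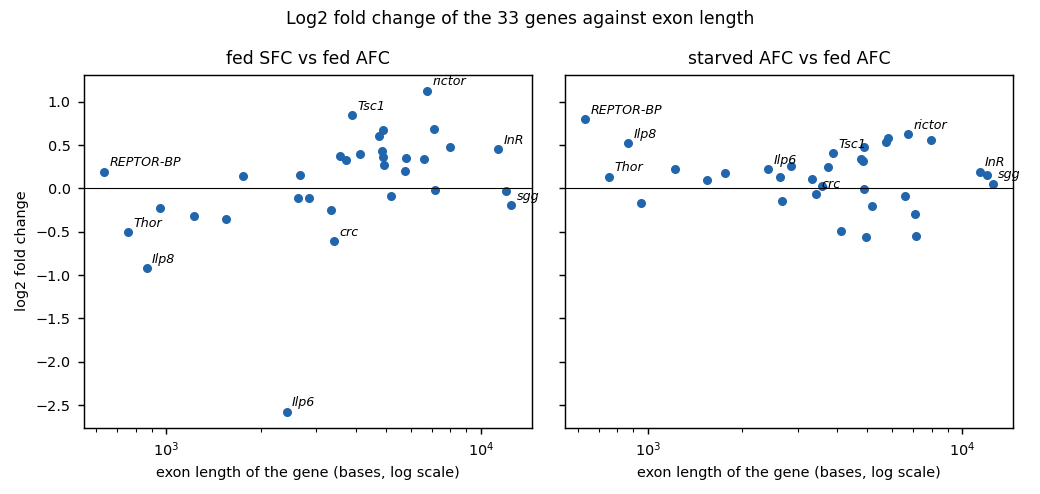
LFC of the 33 genes against exon length (log scale) in fed SFCs over fed AFCs (left) and starved AFCs over fed AFCs (right), with 1 point per gene. The points rise with length on the left (rho = 0.55) and show no such slope on the right (rho = -0.08).

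Further genes of the same pathway were counted for comparison. Of 31 neighbours, such as other insulin-like peptides, the Rag GTPases and the GATOR subunits, 27 were tested and 0 passed in any of the 3 comparisons by edgeR. DESeq2 called 0 of them in fed SFCs and 0 in starved AFCs against fed AFCs, and 3 in fed SFCs against starved AFCs, and the counts at an unadjusted p below 0.05 were 2, 1 and 4 in that order. Over all genes, the shares in the same order were 2.99%, 0.221% and 2.22% by edgeR and 9.76%, 0.929% and 8.2% by DESeq2. At an unadjusted p below 0.05 they were 19.7%, 5.02% and 17.9%. The neuroendocrine peptide genes *Ilp3* and *Ilp5* were too low to be tested. Of 16 genes known as outputs of foxo, REPTOR or ATF4, only *tobi*, a glucosidase gene controlled by insulin and glucagon-like signals, passed by edgeR. It was lower in fed SFCs at 81.2, 92.1 and 121 CPM, against 320.2, 166 and 356 CPM in fed AFCs, and no library of the groups overlapped (LFC -1.51 ± 0.31, SE, adjusted p = 0.021 by edgeR). The part of gut or other tissues in the *tobi* values was not tested. In starved AFCs *tobi* had 197, 186 and 133 CPM, and 0 of the 16 outputs passed in starved AFCs over fed AFCs by edgeR, with 3 at an unadjusted p below 0.05 and 1 by DESeq2. The AFC groups did not overlap for 1 of the 16, *Pepck1*, against 12.1% of all genes. This gluconeogenesis gene is named here because of its values, with 192, 252 and 249.7 CPM in starved AFCs and 138, 47.5 and 87.7 CPM in fed AFCs (LFC 1.34, adjusted p = 0.25 by edgeR). The paper, which used DESeq2, reports that starved AFCs raised the translation of this gene. In fed SFCs over starved AFCs 0 of the 16 passed by edgeR, 5 had an unadjusted p below 0.05 and DESeq2 called 3.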

How the data were processed

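Ribosome-bound mRNA was sequenced single-end by the study from unstranded TruSeq v2 libraries, after adapter removal (bcl2fastq 2.2 and cutadapt per the submitters' processing notes). The authors quantified reads per transcript with Salmon 1.1.0 against BDGP6.32 and deposited, for each of 9 libraries, estimated counts without normalization. TPM values, computed by Salmon over effective lengths, were deposited by the authors beside them, as were the effective lengths.

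Transcripts were assigned to genes of the BDGP6.54 annotation by identifier (30179 of 30215 matched), and the estimated counts of a gene's transcripts were added up and rounded. Coordinates are those of BDGP6.54. Exons of 9 of the 33 genes overlap another gene, over 10% of the exon bases only in *crc* and *raptor*, and unstranded reads there cannot be told apart. TPM was summed per gene, compared between genes within a library, and not tested. Genes were kept by filterByExpr with a minimum count of 10, scaled by TMM and tested in R 4.3.3 by the quasi-likelihood test of edgeR 4.0.16, fitting 1 mean per group over all 9 libraries. Benjamini-Hochberg adjustment covered all 10870 genes, with a threshold of 0.05. The common dispersion was 0.362. The SE was derived from the LFC and its F statistic, and intervals are 95% intervals. With 3 libraries against 3, an exact two-sided permutation test cannot give a p below 0.1, so none was used.

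The members and lists were chosen with earlier results of these data known. Values in every library are given for genes past the threshold, the 5 with the smallest p in each comparison, those without overlap whose LFC exceeded 1 in size, and the 3 highest and 3 lowest by median TPM; all others by LFC or level. Of the other lists only genes past the threshold are named, besides examples and the untested *Ilp3* and *Ilp5*, named as background. Alternative fits used DESeq2 1.42.0, its size factors within edgeR, a filter of 1 count in all, a filter of 50 counts in 3 libraries, length offsets, the 2 groups compared alone, the replicate number as a block, removal of reads on 21 rRNA pseudogenes, and each library left out in turn. Leaving out fed AFC replicate 1 and fed SFC replicate 2 together, and removing a trend with exon length, were added after the data were seen. The edgeR test, but not DESeq2, was also run on simulated counts. These held no outlying library, so that run does not show whether the calls here are sound. No sequences are printed.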

Additional observations from a re-analysis of the deposited data

Results flagged for a closer look

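*Ilp8* stood out because its difference from fed AFCs ran in opposite directions in the other groups and the difference between them passed the test. Its LFC over fed AFCs was -0.92 in fed SFCs and 0.52 in starved AFCs, neither past the threshold by edgeR, and the direct comparison of fed SFCs with starved AFCs gave -1.45 (adjusted p = 0.046 by edgeR). Both LFCs were taken against the same fed AFC libraries. Fed SFCs were lower in 3 of 3 libraries. The call was lost in several alternative fits and without any one of 6 libraries.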

How the results depend on the processing

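No LFC of a gene named with full values changed sign where it was past the threshold. Over the alternatives and the 16 such genes, 882 LFCs stayed on their side of the threshold, 9 passed it and 21 no longer did. With all libraries, only *rictor* in fed SFCs against fed AFCs and *Ilp8* in fed SFCs against starved AFCs were past it. All 21 losses were of these calls, each tried under 19 alternatives, so the 882 do not show that the calls were stable. In fed SFCs against fed AFCs, 1 of the 33 genes was called by edgeR, 0 with DESeq2 size factors, 0 in the fit of only these groups, 0 with the exon length trend removed, 4 by DESeq2, 2 without fed AFC replicate 1 and fed SFC replicate 2 together, and 0 to 2 with one library left out. In starved AFCs against fed AFCs, 0 were called under every alternative run. In fed SFCs against starved AFCs, 1 was called by edgeR, 0 with length offsets, 0 in the fit of only these groups, 0 with the exon length trend removed, 2 by DESeq2, and 0 to 1 with one library left out. The call of *Ilp8* was also lost without fed AFC replicate 1 and fed SFC replicate 2 together (adjusted p = 0.11 by edgeR), where *Ilp6* was called in its place. The cause of these differences was not tested.

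Over all genes, fed SFCs against fed AFCs gave 325 calls by edgeR, 1061 by DESeq2 and 85 to 487 with one library left out, the lowest without fed AFC replicate 3. Starved AFCs against fed AFCs gave 24, 101 by DESeq2, 15 in the fit of only these groups and 8 to 23. Fed SFCs against starved AFCs gave 241, 891 by DESeq2 and 111 to 383.

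Same-numbered libraries of different groups correlated at -0.53 to 0.39 in their deviations from the group means, and differently numbered ones at -0.50 to 0.64. This gave no sign that the replicate numbers pair the libraries. With only 9 same-numbered pairs it cannot exclude a shared preparation. With the replicate block, 0 of the 33 genes were called in each comparison (*rictor* adjusted p = 0.096, *Ilp8* adjusted p = 0.059 by edgeR), and 186 of all genes in fed SFCs against fed AFCs.

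Depth limited *Ilp6* most, with 100 reads or fewer in fed SFCs.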

Other observations

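Salmon also divides the reads of a gene between its transcripts, and the estimated shares of TPM were described for the 29 genes with at least 2 annotated transcripts. In 19 of them the same transcript led in every library, and in 10 the leading transcript changed. *Gcn2* and *raptor* each had 1 transcript at 100% in every library. For *gig* and *Tor* the estimate gave the whole gene to one transcript in some libraries and to the other in others, with shares from 0 to 100% for gig-RB and mTor-RA, whose transcripts are close in length.

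*Thor*, the most abundant of the genes, was read from both annotated transcripts. Thor-RA took 74.1, 27.2 and 43.1% of its TPM in fed SFCs, 40.2, 35.0 and 49.1% in starved AFCs and 43.6, 10.6 and 15.2% in fed AFCs. The spread within fed SFCs and within fed AFCs was as wide as any difference between groups, and the groups overlapped. crc-RA took 61.1, 29.7 and 26.8% of *crc* in fed SFCs, 21.9, 28.4 and 24.8% in starved AFCs and 35.0, 13.5 and 13.8% in fed AFCs, again with overlap. In fed SFCs and in fed AFCs, replicate 1 had the highest share of both transcripts. These shares are estimates of the quantification and were not tested.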
